A study of Mus musculus with 12 samples.

Results

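The 10 genes described here are the Fat, Dachsous, Celsr and planar polarity genes Fat1, Fat3, Fat4, Dchs1, Celsr1, Celsr2, Celsr3, Vangl2, Prickle1 and Prickle2, chosen by name from the 46603 genes counted in the mouse neocortex. They were measured by RNA-seq of poly(A) RNA in Chd8+/+ and Chd8+/- mice on the C57Bl/6J background, at embryonic day 12.5 (E12.5), when the cortical wall is mostly dividing progenitors, and at postnatal day 5 (P5), when its neurons are extending axons and dendrites. Each of the 4 groups held 3 libraries, 12 in all, taken from the cortex of both sides at E12.5 and of 1 side at P5. The Chd8+/- mice carried 1 allele of Chd8 from which an exon was deleted. The gene encodes a chromatin remodelling protein, and the exon was removed by the ubiquitously active β-actinCre line, so that every cell type was heterozygous. Chd8+/+ animals carried no mutant allele. The study asked how the loss of 1 copy of Chd8 changes expression in the neocortex at each age.

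Fat1, Fat3, Fat4 and Dchs1 encode giant cadherins, adhesion proteins with very long extracellular parts. Fat4 and Dchs1 bind each other between neighbouring cells, and in the developing cortex the pair is known for its role in progenitors and in the position of neurons. Celsr1, Celsr2 and Celsr3 are cadherins with several membrane-spanning segments, related to Flamingo of the fly, that join like to like across cell borders. Vangl2, a membrane protein, and Prickle1 and Prickle2, which bind its cytoplasmic end, form one side of the core planar polarity complex, and Frizzled receptors with Dishevelled proteins form the other. Celsr3 and Fzd3 are known for their part in laying down long axon tracts, and Vangl2 for neural tube closure. In the fly, Fat also acts on the Hippo kinases, which restrain the coactivators Yap1 and Wwtr1, partners of the Tead transcription factors.

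Libraries held 38774591 to 50452472 counted fragments at E12.5 and 41803596 to 54695236 at P5, so each gene rested on between 303 fragments (Prickle1 in an E12.5 library) and 17424 (Celsr2). The runs of a library differed from each other by little more than counting noise (chi-squared per degree of freedom 1.18 to 1.54) and were summed, whereas libraries of a group differed by 7.09 to 49.7. P5 Chd8+/- replicate 3 stood apart from replicates 1 and 2 of its group, at 49.7 and 43.7. Chd8 itself was lower in Chd8+/- at E12.5 (161 to 167 CPM against 229 to 235, log2 fold change -0.51, adjusted p = 0.00562) and at P5 (95 to 98.6 against 145 to 151, -0.61, adjusted p = 7.21e-05), in edgeR's quasi-likelihood test. Of 8 markers of radial glia and neural progenitors, 6 fell between stages in Chd8+/+, from Hes5 (36.6 to 13.2 CPM) to Nes (829 to 51) and Vim (1110 to 92.4), and Slc1a3 (99.7 to 475) and Fabp7 (235 to 465) rose. Mean summed levels in Chd8+/+ went from 422 CPM at E12.5 to 28.4 at P5 for intermediate progenitors (4 of 4 lower), from 3410 to 127 for erythrocytes (7 of 8 lower) and from 700 to 333 for meninges (5 of 8 lower). They were higher at P5 for excitatory cortical neurons (687 and 1420, 6 of 8 higher), astrocytes (395 and 1310, 7 of 8), oligodendrocyte precursors (85.6 and 489, 6 of 6), striatal medium spiny neurons (20.4 and 349, 8 of 8), microglia (41.9 and 148, 8 of 8) and choroid plexus (126 and 501, 6 of 8, with Ttr alone at 53.9 and 464). Cajal-Retzius markers summed to 303 and 408 although 4 of 6 were lower, and those of GABAergic interneurons (643 and 648) and endothelium (201 and 226) were lower for 4 of 8 each. Their part in the stage differences given below was not tested. All 10 genes passed the filter on low counts in every comparison. In bulk tissue, fewer cells of a type and less RNA per cell cannot be told apart, and stage cannot be told apart from the dissection and the deposited table that went with it.

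On the per-length scale (RPKM, counted fragments scaled to merged exon length and library size), Vangl2 stood highest of the 10 genes in E12.5 Chd8+/+ neocortex (33.5 ± 1.58, SD, n = 3), followed by Celsr2 (27.9 ± 3.19), Dchs1 (24.2 ± 1.36) and Fat1 (19.8 ± 2.81). Celsr1 (14.5 ± 2.78), Celsr3 (13.9 ± 0.782), Fat4 (10.2 ± 0.975) and Fat3 (7.64 ± 0.199) came next, and Prickle1 (1.94 ± 0.0693) and Prickle2 (1.65 ± 0.113) were lowest. Celsr2 and Dchs1, Fat1 and Celsr1, and Celsr1 and Celsr3 overlapped in their ranges over libraries, and the other neighbours in this order did not. At P5 in Chd8+/+ the order was Celsr2 (25.4 ± 0.563), Celsr3 (19.1 ± 2.02), Prickle2 (17.4 ± 0.173), Dchs1 (13.8 ± 0.695), Prickle1 (10.8 ± 0.305), Vangl2 (7.97 ± 0.143), Fat1 (7.59 ± 0.167), Fat4 (7.27 ± 0.466), Fat3 (6.46 ± 0.196) and Celsr1 (1.36 ± 0.162). There Celsr3 and Prickle2, and Fat1 and Fat4, overlapped. Chd8+/- libraries gave the same order as Chd8+/+ at E12.5, and at P5 the same order except that Fat4 (6.94 ± 0.200) stood above Fat1 (6.47 ± 0.306), with overlapping ranges.

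**Figure D1:**
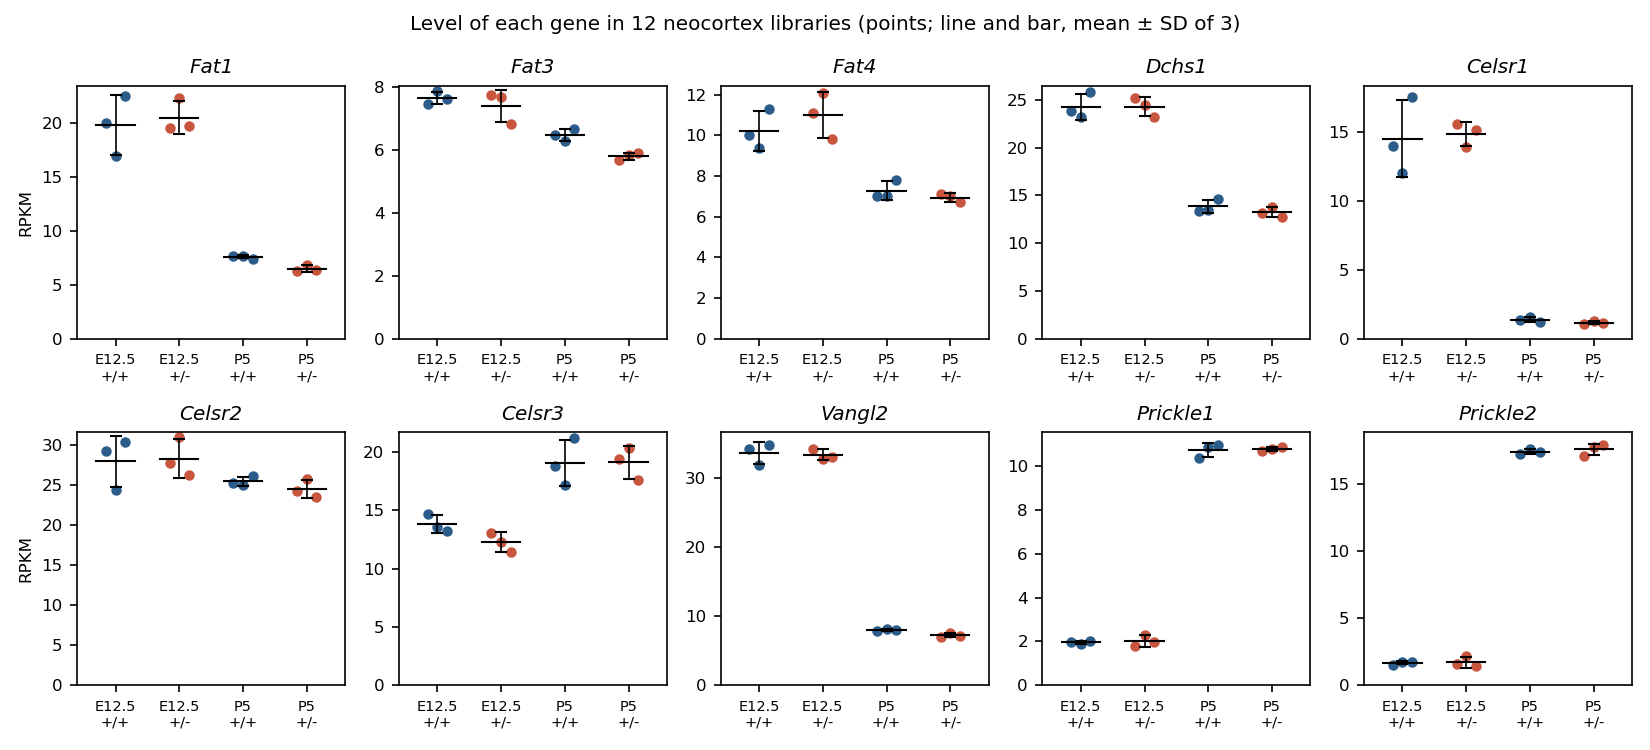
RPKM of each of the 10 genes (y axis, linear from 0) in the 12 libraries, grouped by stage and genotype on the x axis, with Chd8+/+ in blue and Chd8+/- in red. Points are libraries, lines are means and bars are SDs of 3. Celsr1 and Vangl2 drop and Prickle1 and Prickle2 climb between E12.5 and P5 in both genotypes, and the genotypes lie close together within each stage.

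Between E12.5 and P5 the planar polarity genes were reordered. In Chd8+/+ neocortex, 6 of the 10 genes fell (Celsr1, Vangl2, Fat1, Dchs1, Fat4 and Fat3), 3 rose (Prickle2, Prickle1 and Celsr3) and Celsr2 did not pass the test. In Chd8+/- neocortex the 6 fell and the 3 rose likewise, and Celsr2 was called lower as well. Changes of this kind were common: 41.7% of the 19676 genes tested were called lower at P5 and 41.4% higher in Chd8+/+, and 41.6% and 41.3% in Chd8+/-, so the number of genes called is close to that of genes at large. The sizes and directions for each gene follow, by role, from edgeR's quasi-likelihood test over all 12 libraries with Benjamini-Hochberg adjustment over all genes tested.

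Among the giant cadherins, Fat1, which lies at chr8:44935447-45052257 on the plus strand of GRCm38, is known from junctions between radial precursors. Its levels in E12.5 Chd8+/+ replicates 1 to 3 were 20, 16.9 and 22.5 RPKM, and in P5 Chd8+/+ 7.70, 7.68 and 7.40. In Chd8+/- they were 19.5, 22.3 and 19.7 at E12.5 and 6.25, 6.82 and 6.35 at P5. The stages did not overlap, and Fat1 fell to 0.384-fold in Chd8+/+ (log2 fold change -1.38, SE 0.0854, adjusted p = 9.73e-10) and to 0.315-fold in Chd8+/- (-1.66, SE 0.0862, adjusted p = 1.20e-10).

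Fat3 (chr9:15910205-16378231, minus strand), known for shaping the dendrites of retinal neurons, moved least of the Fat genes. Its E12.5 Chd8+/+ libraries held 7.45, 7.85 and 7.62 RPKM and its P5 Chd8+/+ libraries 6.45, 6.27 and 6.66. Chd8+/- libraries held 7.72, 7.66 and 6.81 at E12.5 and 5.67, 5.82 and 5.88 at P5. Every P5 library lay below every E12.5 library of its genotype, with log2 fold changes of -0.24 (SE 0.0461, adjusted p = 2.16e-04) and -0.35 (SE 0.0463, adjusted p = 5.47e-06). With a smooth trend in gene length removed from each library, the fall of Fat3 was -0.49 in Chd8+/+ and -0.50 in Chd8+/-. The median over all genes moved too under that setting, from -0.02 to -0.24 in Chd8+/+ and from -0.0046 to -0.20 in Chd8+/-. Prickle1, with 4.3 kb of exons, then gave 2.19 instead of 2.47 in Chd8+/+, so the shift was not particular to Fat3 or to long genes.

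Fat4 (chr3:38886940-39011985, plus strand) and its partner Dchs1 (chr7:105752989-105787654, minus strand) fell together. Fat4 stood at 10, 9.37 and 11.3 RPKM in E12.5 Chd8+/+, 11.1, 12.1 and 9.82 in E12.5 Chd8+/-, 6.99, 7 and 7.81 in P5 Chd8+/+ and 7.1, 7 and 6.71 in P5 Chd8+/-. Dchs1 stood at 23.8, 23.2 and 25.8 RPKM in E12.5 Chd8+/+, 25.2, 24.5 and 23.2 in E12.5 Chd8+/-, 13.4, 13.5 and 14.6 in P5 Chd8+/+ and 13.2, 13.8 and 12.7 in P5 Chd8+/-. The stages did not overlap for either gene. Fat4 changed by -0.49 on the log2 scale in Chd8+/+ (SE 0.0766, adjusted p = 3.07e-05) and -0.67 in Chd8+/- (SE 0.0769, adjusted p = 1.33e-06). Dchs1 changed by -0.81 (SE 0.055, adjusted p = 3.11e-09) and -0.88 (SE 0.0552, adjusted p = 1.17e-09). Part of the merged exons of Fat4 (8.68%), Dchs1 (5.85%), Fat1 (3.12%) and Celsr3 (0.54%) is shared with short genes annotated over them, mostly antisense. Without a strand option, as at P5, fragments there cannot be assigned to either gene. The setting at E12.5 was not given, and its part in the stage differences of these genes was not tested.

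Of the 3 Celsr cadherins, Celsr1 fell, Celsr3 rose and Celsr2 changed little, with a call only in Chd8+/-. Celsr1 (chr15:85898758-86033777, minus strand), the family member of the embryonic ventricular zone, stood at 14, 12 and 17.5 RPKM in E12.5 Chd8+/+ and 15.6, 13.9 and 15.1 in E12.5 Chd8+/-. At P5 it held 1.33, 1.54 and 1.22 RPKM in Chd8+/+ and 1.06, 1.27 and 1.12 in Chd8+/-, so that every P5 library lay far below every E12.5 library. It fell to 0.0937-fold in Chd8+/+ (log2 fold change -3.42, SE 0.126, adjusted p = 2.33e-12) and to 0.0773-fold in Chd8+/- (-3.69, SE 0.129, adjusted p = 1.23e-12), the deepest fall among the 10 genes.

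Celsr2 (chr3:108390851-108415552, minus strand), a family member known for cilia and dendrites, gave small differences whose call depended on the processing. It stood at 29.2, 24.3 and 30.3 RPKM in E12.5 Chd8+/+ and 25.2, 25.0 and 26.1 in P5 Chd8+/+, and these ranges overlapped. In Chd8+/- it stood at 27.7, 30.9 and 26.2 at E12.5 and 24.2, 25.7 and 23.5 at P5, without overlap. The log2 fold change was -0.13 in Chd8+/+ (95% interval -0.30 to 0.03, adjusted p = 0.125) and -0.21 in Chd8+/- (-0.38 to -0.04, adjusted p = 0.0245). This call was lost without E12.5 Chd8+/- replicate 2 (-0.14, adjusted p = 0.114), P5 Chd8+/- replicate 1 (-0.20, adjusted p = 0.0558) or P5 Chd8+/- replicate 3 (-0.18, adjusted p = 0.0848), and without E12.5 Chd8+/+ replicate 2 the gene was called in Chd8+/+ too (-0.23, adjusted p = 0.00645). With the length trend removed, Celsr2 was called lower in both genotypes, at -0.37 in Chd8+/+ (edgeR adjusted p = 2.21e-04) and -0.35 in Chd8+/- (edgeR adjusted p = 3.13e-04). The medians over all genes under that setting were -0.24 and -0.20, so these values moved with those of genes at large. With library size scaling Celsr2 was called in Chd8+/+ as well (-0.19, edgeR adjusted p = 0.0446). The Chd8+/- call was lost with DESeq2 size factors (-0.17, edgeR adjusted p = 0.0556) and upper quartile scaling (-0.15, edgeR adjusted p = 0.0959).

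Celsr3 (chr9:108826320-108852969, plus strand), the family member of postmitotic neurons, rose. It stood at 14.7, 13.6 and 13.2 RPKM in E12.5 Chd8+/+ and 18.8, 17.2 and 21.2 in P5 Chd8+/+. In Chd8+/- it stood at 13.1, 12.3 and 11.4 at E12.5 and 19.4, 20.4 and 17.6 at P5. The stages did not overlap, with a rise of 0.46 on the log2 scale in Chd8+/+ (SE 0.0785, adjusted p = 7.57e-05) and 0.64 in Chd8+/- (SE 0.0788, adjusted p = 2.72e-06). With the length trend removed, the rise of Celsr3 was 0.23 in Chd8+/+ (edgeR adjusted p = 0.0137) and 0.49 in Chd8+/-, beside the medians of -0.24 and -0.20 over all genes. As shares of the summed per-length signal of the 3 genes in Chd8+/+, Celsr1 went from 25.6% ± 2.65 (SD, n = 3) to 2.98% ± 0.503, Celsr2 from 49.6% ± 0.899 to 55.5% ± 1.71 and Celsr3 from 24.8% ± 2.87 to 41.5% ± 2.21. Chd8+/- libraries gave 26.9%, 51.0% and 22.2% at E12.5 and 2.56%, 54.7% and 42.7% at P5.

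Vangl2 and the Prickle genes, whose products bind each other, moved in opposite directions. Vangl2 (chr1:172000960-172028444, minus strand) stood at 34.1, 31.8 and 34.8 RPKM in E12.5 Chd8+/+, 34.2, 32.7 and 33.0 in E12.5 Chd8+/-, 7.81, 8.09 and 8.02 in P5 Chd8+/+ and 7.02, 7.55 and 7.04 in P5 Chd8+/-. It fell to 0.238-fold in Chd8+/+ (log2 fold change -2.07, SE 0.043, adjusted p = 5.39e-15) and to 0.216-fold in Chd8+/- (-2.21, SE 0.0434, adjusted p = 3.21e-15), and the spread within a group was small beside that difference. Prickle1 (chr15:93499114-93595891, minus strand) held 1.97, 1.87 and 2.00 RPKM in E12.5 Chd8+/+, 1.78, 2.31 and 1.97 in E12.5 Chd8+/-, 10.4, 10.9 and 11 in P5 Chd8+/+ and 10.7, 10.8 and 10.9 in P5 Chd8+/-. It rose 5.54-fold in Chd8+/+ (log2 fold change 2.47, SE 0.0753, adjusted p = 2.72e-13) and 5.33-fold in Chd8+/- (2.42, SE 0.0755, adjusted p = 3.59e-13).

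Prickle2 (chr6:92370908-92706155, minus strand), whose protein is found at synapses, rose most of the 10 genes. It held 1.52, 1.70 and 1.73 RPKM in E12.5 Chd8+/+, 1.56, 2.14 and 1.39 in E12.5 Chd8+/-, 17.2, 17.6 and 17.4 in P5 Chd8+/+ and 17.1, 17.7 and 17.9 in P5 Chd8+/-. The rise was 10.5-fold in Chd8+/+ (log2 fold change 3.40, SE 0.109, adjusted p = 4.60e-13) and 10.4-fold in Chd8+/- (3.37, SE 0.109, adjusted p = 5.12e-13). The ratio of Vangl2 to the summed Prickle1 and Prickle2 levels per length was 9.32 ± 0.432 (SD, n = 3) in E12.5 Chd8+/+ and 0.283 ± 0.00108 in P5 Chd8+/+. In Chd8+/- it was 9.13 ± 1.54 and 0.254 ± 0.0104.

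The promoter windows of these partners are shown because they are the genes of the complex with the clearest and opposite changes between stages. Each runs from 250 bases before to 50 bases after a transcription start, from RefSeq on GRCm38.p6, and capitals mark GGGCGG or its reverse complement CCGCCC, the GC box bound by Sp1 family factors, with overlapping matches counted each.
Vangl2, chr1:172027246-172027545, minus strand: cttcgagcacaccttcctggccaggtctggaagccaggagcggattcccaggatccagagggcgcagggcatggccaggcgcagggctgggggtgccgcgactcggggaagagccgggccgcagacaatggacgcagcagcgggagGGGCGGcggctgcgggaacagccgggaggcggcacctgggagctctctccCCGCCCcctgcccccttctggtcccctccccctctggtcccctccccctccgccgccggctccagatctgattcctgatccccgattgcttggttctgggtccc
Prickle1, chr15:93595853-93596152, minus strand: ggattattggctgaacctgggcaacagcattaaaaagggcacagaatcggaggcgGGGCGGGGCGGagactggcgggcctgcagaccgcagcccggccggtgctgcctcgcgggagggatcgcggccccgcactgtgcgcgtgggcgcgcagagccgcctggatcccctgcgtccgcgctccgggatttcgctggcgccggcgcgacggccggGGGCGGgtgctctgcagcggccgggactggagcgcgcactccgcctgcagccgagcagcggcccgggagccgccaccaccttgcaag
Prickle2, chr6:92706135-92706434, minus strand: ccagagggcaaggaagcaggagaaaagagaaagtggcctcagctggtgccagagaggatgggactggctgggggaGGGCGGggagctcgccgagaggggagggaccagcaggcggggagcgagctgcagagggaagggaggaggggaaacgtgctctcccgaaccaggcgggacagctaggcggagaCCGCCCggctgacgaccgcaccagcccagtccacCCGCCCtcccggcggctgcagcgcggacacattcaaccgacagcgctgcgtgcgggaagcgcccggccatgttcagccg
Of 2 windows of Prickle1 and 4 of Prickle2, the one with the most CpG is shown. The Vangl2 window held 21 CpG and 2 GC boxes, the Prickle1 window shown 39 CpG and 3 GC boxes, and the Prickle2 window shown 25 CpG and 3 GC boxes. The other Prickle1 window held 20 CpG and 2 GC boxes, and the other Prickle2 windows held 4, 5 and 7 CpG and 2, 0 and 1 GC boxes. Over all 32851 windows of the same length the median was 7 CpG, and 35.7% held a GC box on either strand. The matches are a description of these letters. RefSeq windows matched 8 of the 10 genes (12 windows). The windows belong to RefSeq starts, not those of the deposited annotation: the windows of Vangl2 and Fat1 and those of Prickle1 and Prickle2 not shown lie wholly inside the loci given above, and those of Fat3 and Celsr3 wholly outside. The Celsr2 window held 40 CpG and no GC box, and TATAAA, found in 13.6% of all windows, was in none of the 12. Dchs1 and Celsr1 were not matched.

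**Figure D2:**
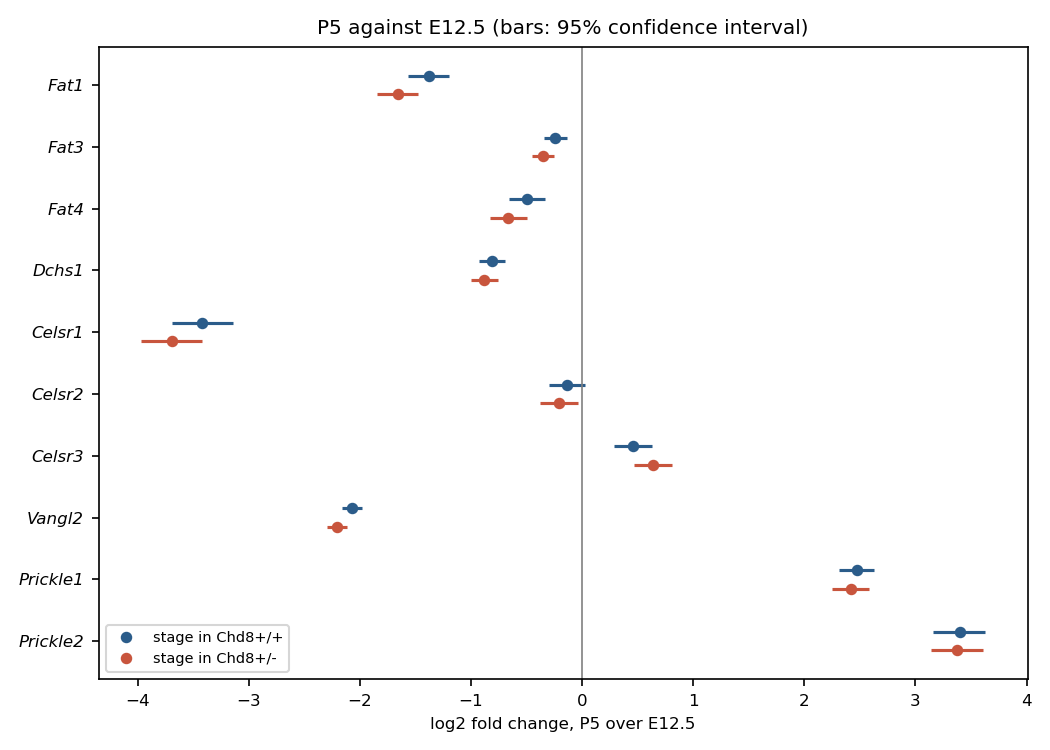
Log2 fold change from E12.5 to P5 (x axis) for each gene (y axis) in Chd8+/+ (blue) and Chd8+/- (red), with bars for the 95% confidence interval of edgeR's fit. Values run from -3.42 for Celsr1 to 3.40 for Prickle2 in Chd8+/+, and the genotypes give the same order of genes at the ends.

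At P5 the differences between genotypes were much smaller than those between stages. Fat1, Fat3 and Vangl2 were lower in each Chd8+/- library than in every Chd8+/+ library, at 0.862-, 0.906- and 0.913-fold of the Chd8+/+ level. Celsr1 was also lower on average, at 0.853-fold, with overlapping groups, and the other 6 genes lay between 0.965- and 1.02-fold. None of the 10 genes passed edgeR's test at an adjusted p of 0.05, which only Chd8 did among 18666 genes (0.00536%), and 4 of the 10 had an unadjusted p under 0.05, against 17.8% of all genes tested. DESeq2's Wald test called 2 of them, Fat1 and Fat3, among 653 of 12362 genes (5.28%).

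Fat1, given above by library, lay at 7.40 to 7.70 RPKM in P5 Chd8+/+ and 6.25 to 6.82 in P5 Chd8+/-, a log2 fold change of -0.21 (SE 0.0397, 95% interval -0.30 to -0.13, unadjusted p = 2.64e-04). It ranked 43 among all genes by p, with an adjusted p of 0.095 in edgeR and 0.00176 in DESeq2. Fat3 lay at 6.27 to 6.66 RPKM against 5.67 to 5.88, a log2 fold change of -0.14 (SE 0.0362, -0.22 to -0.06, edgeR adjusted p = 0.117, DESeq2 adjusted p = 0.0445). Vangl2 lay at 7.81 to 8.09 RPKM against 7.02 to 7.55, a log2 fold change of -0.13 (SE 0.042, -0.22 to -0.04, edgeR adjusted p = 0.163). Such a separation of 3 libraries from 3, lower in Chd8+/-, was seen in 14.8% of all genes at P5, and higher in 8.55%. Without P5 Chd8+/- replicate 2, Fat1 was called by edgeR (-0.25, adjusted p = 0.0212), when 327 genes in all were called instead of 1. Without replicate 3 of that group, which stood apart, Fat1 gave -0.19 (adjusted p = 0.192). Over all alternatives the edgeR, limma or DESeq2 adjusted p of Fat1 ran from 8.83e-04 to 0.39 and that of Fat3 from 0.035 to 0.733.

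Celsr1, at 1.22 to 1.54 RPKM in P5 Chd8+/+ and 1.06 to 1.27 in Chd8+/-, gave a log2 fold change of -0.23 (SE 0.0957, -0.44 to -0.02, edgeR adjusted p = 0.25). Without P5 Chd8+/+ replicate 2, the highest library, this was -0.14 (adjusted p = 0.532). Fat4 (-0.05, -0.16 to 0.06), Dchs1 (-0.05, -0.16 to 0.05) and Celsr2 (-0.04, -0.13 to 0.05) gave intervals across 0. So did Celsr3 (0.02, -0.15 to 0.19), Prickle1 (0.02, -0.07 to 0.11) and Prickle2 (0.03, -0.05 to 0.11).

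**Figure D3:**
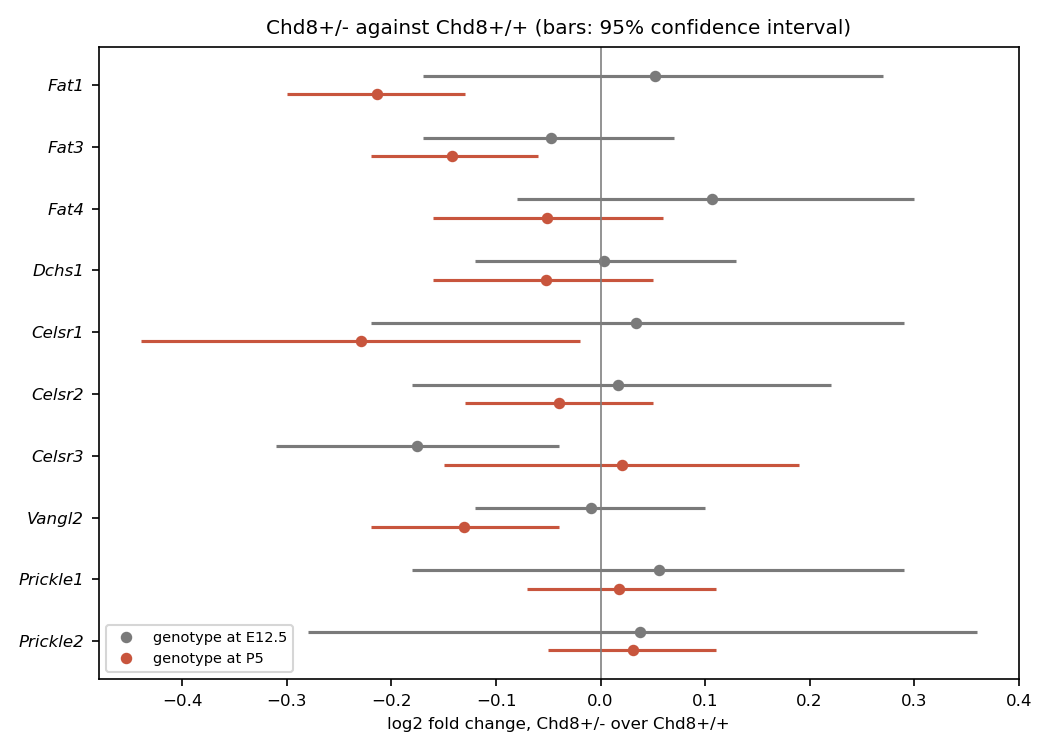
Log2 fold change of Chd8+/- over Chd8+/+ (x axis) for each gene (y axis) at E12.5 (grey) and P5 (red), with bars for the 95% confidence interval of edgeR's fit. At P5 the intervals of Fat1, Fat3, Celsr1 and Vangl2 lie below 0, and at E12.5 that of Celsr3 does.

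Gene length moved with the genotype difference at P5. Of the genes in the top length decile by merged exons (8400 bases and over), 73.6% were lower in Chd8+/-, at a median log2 fold change of -0.06, against a median of 0.06 and 36.5% lower among genes of 1111 to 1741 bases. Of the 10 genes, 8 fell in that decile, from Prickle2 with 8.6 kb of exons to Fat3 with 18.5 kb, and Vangl2 (7.0 kb) and Prickle1 (4.3 kb) were shorter. With a smooth trend in gene length removed from each library, Fat1 gave -0.13 (SE 0.0384, unadjusted p = 0.00554, edgeR adjusted p = 0.192), Fat3 -0.05 (SE 0.0375, unadjusted p = 0.189), Vangl2 -0.09 (SE 0.0415, unadjusted p = 0.0608) and Celsr1 -0.16 (SE 0.0915, unadjusted p = 0.102). Fat4 (0.04), Dchs1 (0.02) and Celsr2 (0.03) then turned positive, so that 4 of the 10 genes instead of 7 were lower in Chd8+/-. Prickle2 gave 0.09 (unadjusted p = 0.0416, edgeR adjusted p = 0.308). At E12.5 the medians over length classes stayed between -0.01 and 0.01.

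**Figure D4:**
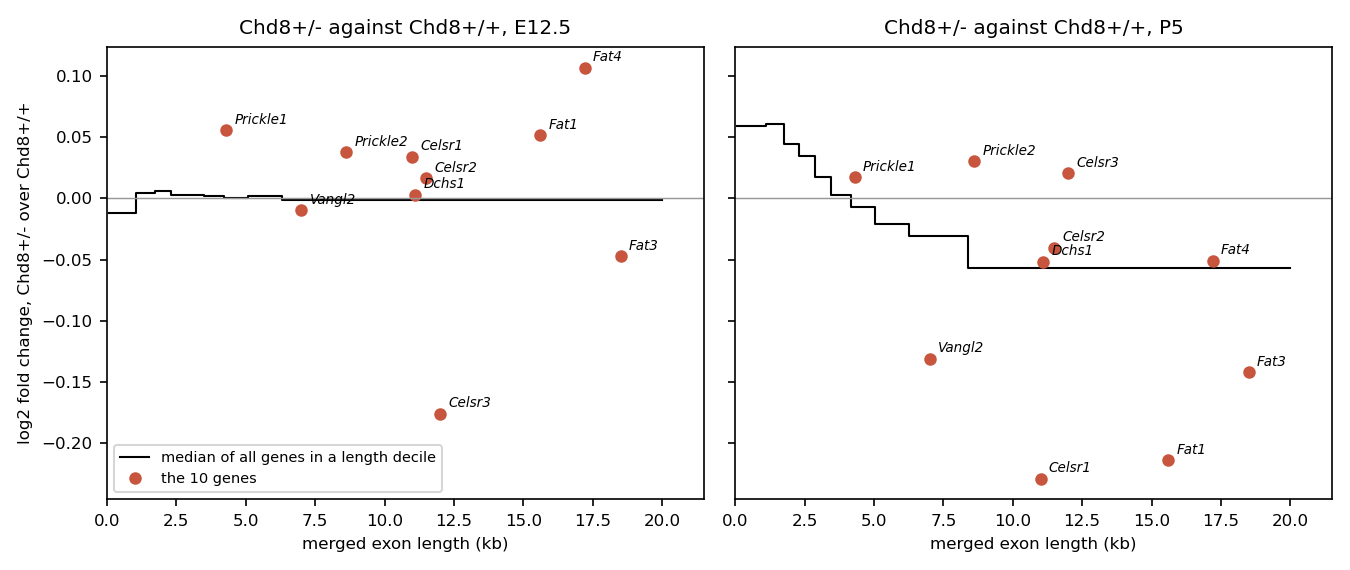
Log2 fold change of Chd8+/- over Chd8+/+ (y axis) against merged exon length in kb (x axis) at E12.5 (left) and P5 (right). The black steps are medians of all genes tested in each length decile, and red points are the 10 genes. At P5 the medians run from 0.06 to -0.06 with length, and Fat1, Fat3, Celsr1 and Vangl2 lie below them.

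Markers of some other cell types moved with genotype at P5 too. Choroid plexus markers summed to 449 to 582 CPM in Chd8+/+ and 327 to 387 in Chd8+/-, with 8 of 8 lower and 7 at an unadjusted p under 0.05. Markers of striatal medium spiny neurons summed to 334 to 366 and 245 to 301 CPM, with 8 of 8 lower, all at an unadjusted p under 0.05. Endothelial markers (211 to 237 against 193 to 209, 7 of 8 lower) and those of intermediate progenitors (27.2 to 30.5 against 22.9 to 24.9, 4 of 4 lower) did not overlap either. The same held for GABAergic interneurons (638 to 655 against 548 to 615, 7 of 8 lower) and Cajal-Retzius cells (405 to 411 against 357 to 374, 3 of 6 lower). Of the mean Cajal-Retzius sums of 408 and 367 CPM, Reln alone held 359 and 316. None of these genes was at 0 in a P5 group. Sums overlapped for meninges (322 to 353 against 305 to 398, 7 of 8 higher) and excitatory cortical neurons (1370 to 1460 against 1360 to 1440, 5 of 8 higher). Those of astrocytes, oligodendrocyte precursors, microglia and erythrocytes overlapped as well. Radial glia and progenitor markers overlapped as a sum (1080 to 1250 against 1110 to 1180), but 6 of 8 were lower, among them Pax6 (log2 fold change -0.21, unadjusted p = 0.016) and Vim (-0.11, unadjusted p = 0.0191), and Hes5 was higher (0.23, unadjusted p = 0.00511), with edgeR adjusted p of 0.133 to 0.199 for these 3. The part of these cells in the lower Fat1, Fat3 and Vangl2 values was not tested.

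At E12.5 the genotypes differed less. None of the 10 genes was called by edgeR or DESeq2, when edgeR called only Chd8 among 18081 genes (0.00553%) and DESeq2 called 5. Celsr3 alone among the 10 had an unadjusted p under 0.05, against 5.15% of all genes. Its Chd8+/- libraries (11.4 to 13.1 RPKM) all lay below its Chd8+/+ libraries (13.2 to 14.7), a separation seen lower in 5.76% and higher in 5.6% of genes. The log2 fold change was -0.18 (SE 0.0591, 95% interval -0.31 to -0.04, edgeR adjusted p = 0.942). Endothelial markers were likewise separated at E12.5 (198 to 206 CPM in Chd8+/+ and 178 to 192 in Chd8+/-, 7 of 7 tested lower). Astrocyte markers were separated the other way (387 to 411 and 421 to 445 CPM, 5 of 6 tested higher). The part of either in the Celsr3 value was not tested. The other 9 genes overlapped between genotypes, with log2 fold changes from -0.05 (Fat3) to 0.11 (Fat4). Their intervals were widest for Prickle2 (-0.28 to 0.36) and Celsr1 (-0.22 to 0.29) and narrowest for Vangl2 (-0.12 to 0.10) and Fat3 (-0.17 to 0.07).

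Whether the genotype difference itself changed between stages was tested with the interaction over all 12 libraries. None of the 10 genes passed the adjusted threshold, and none of the 19676 genes tested did in edgeR (0%), while DESeq2 called 8 genes outside this set. An unadjusted p under 0.05 was found for Fat1 (difference of log2 fold changes -0.28, 95% interval -0.54 to -0.03, unadjusted p = 0.0329, edgeR adjusted p = 0.467) and Vangl2 (-0.14, -0.26 to -0.01, unadjusted p = 0.0358, edgeR adjusted p = 0.471), 2 of 10 against 10% of all genes. With length trends removed neither kept it (Fat1 -0.19, unadjusted p = 0.105, and Vangl2 -0.08, unadjusted p = 0.253), whereas Celsr3 gave 0.27 (unadjusted p = 0.0275, edgeR adjusted p = 0.582). Without E12.5 Chd8+/+ replicate 2, Fat1 gave -0.17 (unadjusted p = 0.0998), Vangl2 -0.09 and Celsr1 -0.15, and without replicate 3 of that group Celsr1 gave -0.43. The value was negative for 9 of the 10 genes, beside 54.2% of all genes, with a median of -0.09 beside -0.02 over all genes tested, and positive for Celsr3 (0.18, -0.06 to 0.42). Dchs1, Celsr2 and Prickle2 became positive as well once length trends were removed, which left 6 of the 10 negative, and 6 were negative without E12.5 Chd8+/- replicate 2. Fat3 (-0.11, -0.25 to 0.03), Fat4 (-0.17, -0.41 to 0.06) and Celsr1 (-0.28, -0.65 to 0.09) had intervals across 0.

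The other genes of these pathways were read from the same fits, as 53 genes in 7 lists. Between stages in Chd8+/+, 36 of the 51 tested fell and 14 rose, and in Chd8+/- 37 fell and 13 rose, where 41.7% and 41.4% of all genes fell and rose in Chd8+/+ and 41.6% and 41.3% in Chd8+/-. Fat2 and Wnt11, counted among those that rose, passed the filter on low counts only through their P5 libraries, so that they had to differ, and are given by level alone. The lowest list median (log2) in Chd8+/+ was -2.07, for the Yap and Tead regulators, beside -0.02 over all genes tested. No median is given for the remaining Fat and Dachsous genes with Fjx1, since it would rest on Fat2.

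Dchs2 and Fjx1, the homologue of a Golgi protein that modifies Fat and Dachsous in the fly, were higher at P5, unlike Fat1, Fat3, Fat4 and Dchs1. Fat2 stood at 0.0835 ± 0.0186 CPM (SD, n = 3) in E12.5 Chd8+/+ and 1.70 ± 0.425 at P5. Fjx1 rose from 52.1 ± 0.707 to 72.2 ± 3.57 CPM (log2 fold change 0.47, SE 0.055). Dchs2 rose from 0.537 ± 0.116 to 6.96 ± 0.842 CPM (3.70, SE 0.235). Dchs2 and Fjx1 were called in both genotypes.

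Among the other core planar polarity genes, 5 fell and 2 rose of 8 tested in Chd8+/+. Fzd3, the Frizzled receptor of axon tracts, fell most, from 85.4 ± 1.82 to 21.2 ± 2.79 CPM (log2 fold change -2.01, SE 0.12, edgeR adjusted p = 6.37e-10). Dvl1, a Dishevelled protein, rose most, from 74.5 ± 10 to 128 ± 3.77 CPM (0.79, SE 0.0688, edgeR adjusted p = 5.93e-08). Of 10 noncanonical Wnt genes and planar polarity partners, 9 fell, led by the Wnt5a receptor Ror2 (37.0 ± 4.4 to 4.04 ± 0.393 CPM, -3.19, SE 0.102), and Wnt11 stood at 0.177 ± 0.0819 CPM at E12.5 and 0.862 ± 0.228 at P5. Of 9 effectors, 5 fell, led by the kinase Rock1 (-1.30, SE 0.0546), and 4 rose, led by the formin Daam2 (1.2, SE 0.0925).

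In the Hippo branch, 7 of 10 kinases and scaffolds fell, led by Mob1a, a cofactor of the Lats kinases (-1.51, SE 0.048), and 3 rose, led by the scaffold Wwc1 (1.34, SE 0.0454). All 7 Yap and Tead regulators fell, from Vgll4 (-0.73, SE 0.0482), a competitor of Yap for Tead, to Tead2 (348 ± 24.6 to 15.5 ± 0.620 CPM, -4.49, SE 0.0591). Of 4 Yap targets tested, Ajuba (-3.61, SE 0.0753), Ccn1 (-2.52, SE 0.0904) and Amotl2 (-1.43, SE 0.0592) fell and Ccn2 rose (2.09, SE 0.152). In Chd8+/- these leading genes moved the same way, from -4.47 for Tead2 to 2.96 for Dchs2.

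**Figure D5:**
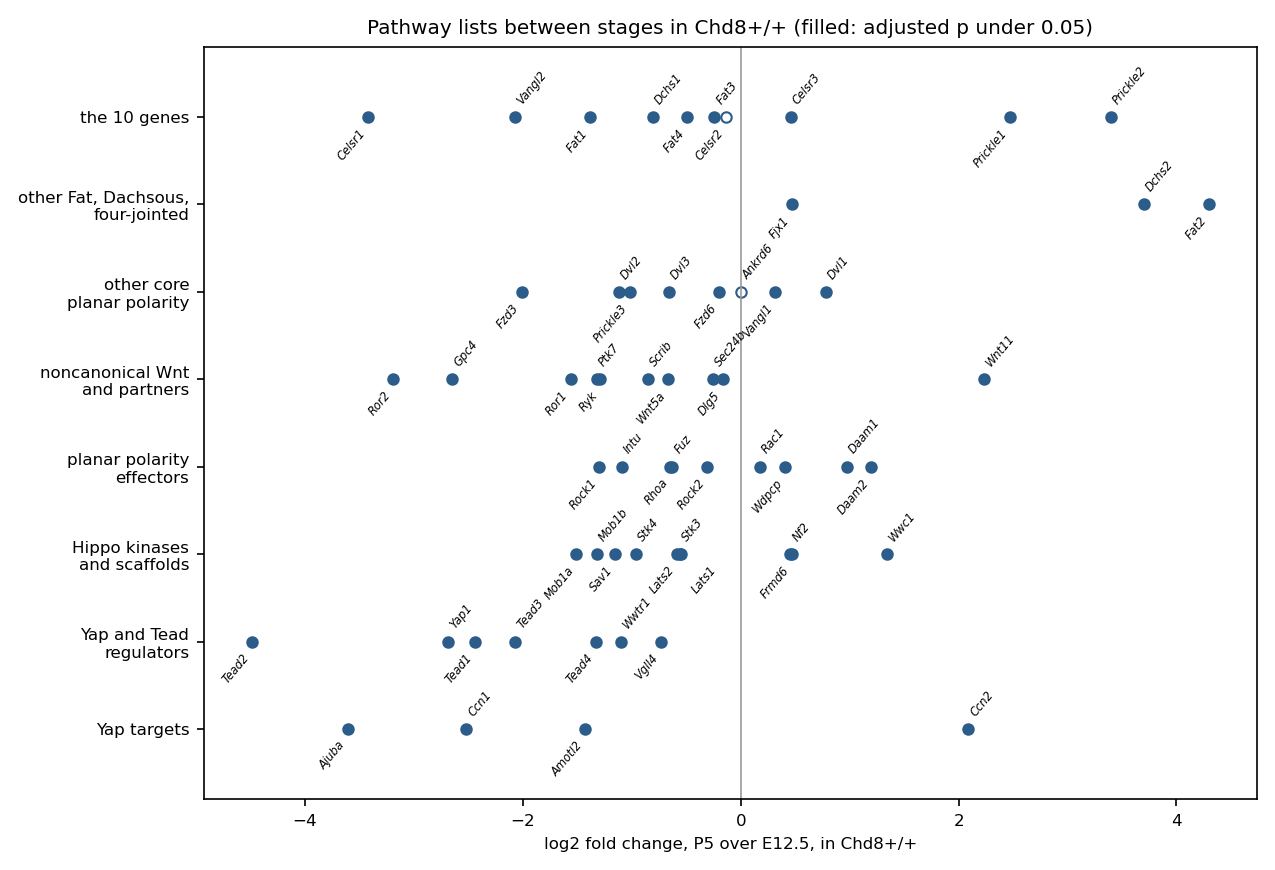
Log2 fold change from E12.5 to P5 in Chd8+/+ (x axis) of every tested gene in the 10 genes and the 7 related lists (rows). Filled points passed an adjusted p of 0.05. The Yap and Tead regulators all lie left of 0, down to -4.49 for Tead2, and Dchs2 and Fjx1 lie right of it. Fat2 and Wnt11 are plotted too, but passed the filter only through P5.

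By genotype, none of the 53 other genes was called by edgeR at either stage. At P5, 36 of 51 tested were lower in Chd8+/-, beside 49.6% of all genes, and 5 had an unadjusted p under 0.05, a smaller share than the 17.8% of all genes. All 5 were lower: the cadherin Dchs2 (6.96 ± 0.842 against 5.17 ± 1.41 CPM, log2 fold change -0.41, unadjusted p = 0.0408), the Frizzled receptor Fzd6 (13.7 ± 0.342 against 11.7 ± 0.395, -0.21, unadjusted p = 0.00708), Dvl3 (-0.11, unadjusted p = 0.0323), the scaffold Dlg5 (-0.10, unadjusted p = 0.0206) and the Yap target Ccn1 (3.84 ± 0.229 against 2.84 ± 0.351, -0.42, unadjusted p = 0.00596). Adjusted p in edgeR was 0.139 to 0.260 for these 5. At E12.5, 3 of 49 tested had an unadjusted p under 0.05, close to the 5.15% of all genes, namely Wdpcp (0.21, unadjusted p = 0.0249) and the Hippo kinase Stk3 (0.14, unadjusted p = 0.0254), higher in Chd8+/-, and Ccn1 (-0.16, unadjusted p = 0.0458), lower, with an edgeR adjusted p of 0.942 each.

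Each of the 10 genes was also compared with 15430 genes of the table (mean of at least 1 CPM) for likeness of pattern, as the root mean square difference of centred log2 CPM over the 12 libraries. The closest were Tbl1x (0.0392) and Bcl9 (0.045) to Dchs1, Zfp462 (0.046) and Etaa1 (0.052) to Vangl2, Prkaa1 (0.0462) and Fgd4 (0.0529) to Fat3, and Dlg5 (0.0513) and Xpo6 (0.0536) to Celsr2. Fam193a (0.0598) and Sh3pxd2b (0.0608) came closest to Fat4, Cirbp (0.0557) and Sirt4 (0.0677) to Celsr3, and E2f3 (0.0695) and Amotl1 (0.0702) to Fat1. Gnb4 (0.0808) and Slc2a3 (0.0853) came closest to Prickle1, Nrsn1 (0.0803) and Wnt4 (0.0923) to Prickle2, and Wee1 (0.109) and Nr2e1 (0.112) to Celsr1. The points share stage and library depth, and none of the 10 genes was among the 2 closest to another.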

How the data were processed

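Poly(A) RNA of microdissected neocortex was sequenced in pairs on an Illumina HiSeq from dUTP libraries. The authors trimmed reads (Trim Galore 0.4.1), aligned them (TopHat2 2.1.0) to GRCm38.p4 and deposited raw counts of fragments per gene and sequencing run from featureCounts 1.5.0, with Ensembl release 82 and no strand option at P5. The command used at E12.5 was not given in the sources used here. Runs of a library were summed. Every per-sample column was used.

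Counts were tested with edgeR 4.0.16 (quasi-likelihood, TMM, filterByExpr, Benjamini-Hochberg over all genes tested, threshold 0.05), in R 4.3.3, with genotype within each stage (6 libraries) and with 4 groups over 12 libraries for stage and interaction. DESeq2 1.42.0 (which the authors also used, in version 1.10.1), limma 3.58.1 (voom), other scalings and filters, length offsets, a replicate block, a sex term and leaving out each library were alternatives. RPKM used TMM-scaled totals and the deposited merged exon lengths. Promoter sequences came from RefSeq.

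The 10 genes and all lists were chosen with earlier results of these data known. Named in the text are the 10 genes, Chd8 and the 2 genes closest to each of the 10. From the 7 pathway lists, genes at an unadjusted p under 0.05 by genotype and the largest rise and fall by stage are named. Genes beyond that rule (Dchs2, Fjx1, Vgll4, Ccn1 and Amotl2 by stage, and the single marker genes by stage or genotype) were named after their values were seen. Other marker genes also had an unadjusted p under 0.05 by genotype and are not named. The labels do not say which animals or litters the libraries came from, so p-values measure the spread between these samples. The scripts were tested on simulated data. For genotype at P5, 15 of 50 genes changed by 0.3 on the log2 scale were recovered, and 33 of 50 at 0.5. That simulation gave 18 false calls.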

Additional observations from a re-analysis of the deposited data

How the results depend on the processing

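Of the values of single genes under other settings, 1018 kept their direction and their side of the threshold, 9 gained a call, 6 lost one and 37 changed sign, none of these a called value. At P5, the number of the 10 genes called by genotype went from 0 to 1 (Fat1) at an adjusted p of 0.1, to 2 (Fat1 and Fat3) with all genes of at least 1 count kept, to 2 with DESeq2's Wald test, and ran from 0 to 1 when each library was left out. Calls over all genes went with it, from 1 to 136, 995 and 653, and to 327 without P5 Chd8+/- replicate 2. The cause was not tested. At E12.5 and for the interaction no setting called any of the 10 genes. Between stages 9 or 10 were called under every setting, the difference being Celsr2, whose adjusted p rose to 0.0959 in Chd8+/- under upper quartile scaling. Length offsets moved the median over all genes between stages from -0.02 to -0.24 in Chd8+/+ and from -0.0046 to -0.20 in Chd8+/-. Without a length correction, 26 of 40 places in the order of levels changed.

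Signs turned as follows. With length offsets at P5, Fat4 gave 0.0373, Dchs1 0.0169 and Celsr2 0.0301, and for the interaction Dchs1 gave 0.0134, Celsr2 0.0133 and Prickle2 0.0533. With all genes kept at E12.5, Dchs1 gave -0.00371. Leaving out each library at E12.5 gave ranges of -0.0457 to 0.153 for Fat1, -0.0783 to 0.00791 for Fat3, -0.0246 to 0.0474 for Dchs1, -0.079 to 0.191 for Celsr1, -0.0697 to 0.0781 for Celsr2, -0.0423 to 0.016 for Vangl2, -0.0456 to 0.136 for Prickle1 and -0.161 to 0.163 for Prickle2. At P5 the ranges were -0.0779 to 0.0102 for Fat4, -0.0484 to 0.111 for Celsr3 and -0.0061 to 0.0392 for Prickle1, and for the interaction -0.127 to 0.0315 for Celsr2, -0.112 to 0.0561 for Prickle1 and -0.128 to 0.186 for Prickle2.

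The replicate numbers did not pair the samples: deviations of same-numbered libraries correlated at -0.227, -0.102 and -0.0913 at E12.5 and 0.227, 0.111 and 0.0434 at P5. With the replicate block, 0 of the 10 genes were called by genotype at either stage and for the interaction, and 9 in each stage comparison, Celsr2 losing its call in Chd8+/- (adjusted p = 0.062), with 0 genes in all at E12.5 and 4 at P5. With the block and length offsets, Fat4 gave 0.0376, Dchs1 0.0172 and Celsr2 0.0294 at P5, and for the interaction Dchs1 gave 0.0129, Celsr2 0.0092 and Prickle2 0.0699. The sex term, chosen after seeing the data since 1 library in each group of 3 was female by Xist, changed no call among the 10 genes.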

Other observations

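In 3 of the 4 groups, the library that read lowest for most of the 10 genes also read lowest for the most long genes. E12.5 Chd8+/+ replicate 2 was the lowest of its group for 7 of the 10 genes, and for 49.0% of the 1828 genes with at least 8400 bases of exons against 37.4% of all 15429 genes at a mean of 1 CPM or more. P5 Chd8+/- replicate 1 was the lowest of its group for 6 of the 10 genes, for 63.6% of the long genes and for 38.2% of all. P5 Chd8+/- replicate 2 was the lowest for 0 of the 10 genes and for 16% of the long genes, against 34.9% of all. E12.5 Chd8+/- replicate 3 was the lowest for 6 of the 10 genes, for 43.0% of the long genes and for 29.8% of all. P5 Chd8+/+ differed: replicate 1 was the lowest for 5 of the 10 genes but for 23.4% of the long genes, and replicate 3 for 2 of the 10 and 41.4% of the long genes.

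Among the Fat genes, the share of the summed per-length signal held by Fat1 in Chd8+/+ went from 52.4% ± 2.55 (SD, n = 3) at E12.5 to 35.6% ± 1.56 at P5, while Fat3 went from 20.4% ± 2.35 to 30.3% ± 0.316 and Fat4 from 27.2% ± 0.379 to 34.1% ± 1.42. Prickle1 held 54.1% ± 2.05 of the summed Prickle1 and Prickle2 signal at E12.5 and 38.3% ± 0.5 at P5. Between genotypes at a stage, the shares of Fat1, Fat3, Fat4, Prickle1 and Prickle2 overlapped. Vangl1, the paralog of Vangl2, was at 7.25 ± 0.669 CPM in E12.5 Chd8+/+ and 9.04 ± 0.501 at P5 (log2 fold change 0.32, SE 0.113, edgeR adjusted p = 0.0181), where Vangl2 fell. In Chd8+/- the change of Vangl1 was 0.03 (SE 0.114, edgeR adjusted p = 0.831), and the difference between genotypes gave an adjusted p of 0.56. Vangl1 was named after its values were seen.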
